A study of Mus musculus with 16 samples.

Results

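The set of 10 genes described here covers insulin and IGF1 signalling, AKT, the FOXO factors and muscle atrophy in adult mouse cardiomyocytes, and every H3K27Ac peak that the peak lists assign to one of them. The members are the receptors Insr and Igf1r, the receptor substrates Irs1 and Irs2, the kinases Akt1 and Akt2, the transcription factors Foxo1 and Foxo3, and the atrophy ligases Fbxo32 (atrogin-1) and Trim63 (MuRF1). They hold 80 of the 53959 peaks in the 4 H3K27Ac lists, and those 80 peaks merged into 23 of 18277 regions.

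The series holds 16 chromatin immunoprecipitation (ChIP) and input libraries from hearts, in a study of how loss of desmin, the muscle intermediate filament protein, changes chromatin. The 4 H3K27Ac libraries came from primary cardiomyocytes of 3-month-old mice: Des+/+ basal, Des-/- basal, Des+/+ after swimming and Des-/- after swimming. Des-/- mice lack desmin in every cell and already have dilated cardiomyopathy at this age. The chromatin of several mice was pooled, and each group is 1 library with its own input. No replicate spread exists, so no test between groups was possible and every interval given here covers counting error only.

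Insulin and IGF1 bind the receptors Insr and Igf1r, whose tyrosine kinase activity marks Irs1 and Irs2 and, through PI3-kinase, activates AKT. AKT phosphorylates the FOXO factors and keeps them out of the nucleus, and when AKT activity is low the FOXO factors bind DNA and promote transcription of the muscle ubiquitin ligase genes Fbxo32 and Trim63, whose products direct muscle proteins to the proteasome. H3K27Ac is the acetylation of histone H3 at lysine 27, a mark of active promoters and enhancers.

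A height is the number of overlapping ChIP reads at the peak summit, and the lowest listed H3K27Ac height was 15 reads, for which the 95% Poisson interval is 8.40 to 24.7. A gene without a peak is therefore a gene below the listing limits of height and enrichment over input, not a gene without the mark. The lists carry no read totals, so the depth of a library is unknown. The basal lists had 15757 peaks (Des+/+) and 16638 (Des-/-), and the swim lists 11157 and 10407. The Des-/- swim library stood apart by its input, which had a mean of 5.48 reads at its peaks against 2.80 to 3.06 in the others. All 8 cardiomyocyte markers had a peak in the other lists, but Actc1, Myl2 and Actn2 had none in Des-/- swim. Of 6 endothelial markers 6, 6, 5 and 4 had a peak in the order Des+/+ and Des-/- basal, then Des+/+ and Des-/- swim, of 6 fibroblast markers 1, 2, 0 and 0, and of 6 leukocyte and 4 smooth muscle and pericyte markers none did in any list. The peaks of the 8 cardiomyocyte markers numbered 38, 29, 25 and 11 in the same order, and those of the 6 endothelial markers 26, 22, 17 and 19. The part of these shifts in the results below was not tested.

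The sequences below are the Trim63 promoter, whose peak was missing from Des-/- swim, the Fbxo32 intron 4 peak, which neither Des-/- list held, and Insr intron peaks listed in Des+/+ swim alone, with Igf1r and Irs2 as promoters present in every list. Of the Insr peaks, the intron 2 peak is shown for its FOXO match and the higher intron 9 peak as one with no match, and they were chosen after the matches were seen. Capitals mark matches on either strand to 7 motifs. The FOXO motif was searched as GTAAACA and the insulin response core as CAAAACA. The GATA factor motif was searched as AGATAA and the E-box as CAGCTG. A MEF2 site was searched by its outer bases, CTANNNNTAG, and a glucocorticoid receptor site as GAACANNNTGTTC. The TATA box was searched as TATAAA. The coordinates are of GRCm38.p6, the promoters are the 250 bases before the RefSeq start on the strand of the gene, and the intron windows are 201 bases around a summit on the plus strand.
Trim63 promoter, chr4:134314870-134315119, plus strand: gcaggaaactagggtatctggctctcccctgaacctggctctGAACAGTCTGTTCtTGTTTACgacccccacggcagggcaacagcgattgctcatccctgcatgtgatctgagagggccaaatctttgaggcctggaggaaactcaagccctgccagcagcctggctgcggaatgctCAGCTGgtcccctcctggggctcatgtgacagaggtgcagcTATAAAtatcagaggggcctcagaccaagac
Fbxo32 intron 4 peak of Des+/+ swim, chr15:58203762-58203962: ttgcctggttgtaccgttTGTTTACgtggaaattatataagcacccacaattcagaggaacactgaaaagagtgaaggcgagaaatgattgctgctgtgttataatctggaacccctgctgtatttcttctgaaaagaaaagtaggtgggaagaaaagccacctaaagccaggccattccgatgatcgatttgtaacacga
Insr intron 2 peak of Des+/+ swim, chr8:3247455-3247655: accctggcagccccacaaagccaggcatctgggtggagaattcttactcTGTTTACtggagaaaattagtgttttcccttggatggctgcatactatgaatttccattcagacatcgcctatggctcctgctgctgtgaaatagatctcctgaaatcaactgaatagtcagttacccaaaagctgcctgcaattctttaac
Insr intron 9 peak of Des+/+ swim, chr8:3187967-3188167: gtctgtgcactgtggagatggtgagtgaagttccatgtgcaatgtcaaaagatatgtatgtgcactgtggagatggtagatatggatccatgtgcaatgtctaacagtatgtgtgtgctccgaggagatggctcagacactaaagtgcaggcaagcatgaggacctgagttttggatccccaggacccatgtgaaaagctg
Irs2 promoter, chr8:11008930-11009179, minus strand: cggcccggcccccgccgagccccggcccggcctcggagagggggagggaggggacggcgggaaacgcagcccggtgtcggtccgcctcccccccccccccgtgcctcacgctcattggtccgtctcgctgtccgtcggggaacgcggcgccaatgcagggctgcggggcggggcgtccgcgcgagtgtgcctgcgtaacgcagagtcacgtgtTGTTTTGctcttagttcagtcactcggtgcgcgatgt
Igf1r promoter, chr7:67952007-67952256, plus strand: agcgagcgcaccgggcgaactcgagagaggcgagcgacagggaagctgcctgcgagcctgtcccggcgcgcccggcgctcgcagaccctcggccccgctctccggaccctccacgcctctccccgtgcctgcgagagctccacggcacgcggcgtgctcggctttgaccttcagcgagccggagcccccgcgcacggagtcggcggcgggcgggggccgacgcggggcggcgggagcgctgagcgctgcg
The RefSeq promoter table held 8 of the 10 genes. In the Trim63 promoter the glucocorticoid receptor letters stood 208 to 196 bases before the start and the FOXO letters 194 to 188 bases before it, separated by a single base. The same promoter held an E-box match 72 to 67 and a TATA match 31 to 26 bases before the start. In windows of 300 bases around the start, the FOXO letters were found in 3.65% of 32851 promoters and the glucocorticoid receptor letters in 0.0578%. The E-box letters were in 16.3%, with 1 start of Akt2 among them, and the TATA letters in 13.6%. The GATA letters, in 11.2% of promoters, and the MEF2 letters, in 3.69%, matched no promoter held for these 8 genes, of which Akt1 and Akt2 had more than 1 start. Akt1 was the other member with the FOXO letters in that window, at 1 of its starts. Irs1 and Irs2 were those with the insulin response core, which 6.28% of promoters held. The Fbxo32 window held 1 FOXO match at bases 58203780 to 58203786, inside the windows of both Des+/+ peaks. Of 24 windows at intron peaks of the members 4 held the FOXO letters, namely the windows of those 2 Fbxo32 peaks, the Insr intron 2 window printed above and a window of Igf1r in Des+/+ basal. The other 4 Insr windows of Des+/+ swim and every Insr window of the basal lists held none. The letters were in 3.14% of 4330 windows at all intron peaks of the Des+/+ lists. Of the 24 member windows, 7 were from Des-/- basal and 1 from Des-/- swim. The insulin response core was in 1 of the 24 against 7.14% of the 4330 windows. The GATA letters were in 1 against 8.31% and the E-box letters in 2 against 12.3%. The TATA, MEF2 and glucocorticoid receptor letters were in none, against 8.11%, 2.61% and 0.0693%. The promoters differed in CpG content. The ratio of observed to expected CpG was 1.11 at Igf1r, 1.10 at Foxo1 and 1.06 at Irs2, against 0.289 at Trim63 and a median of 0.384 over all promoters. These matches are letters in a sequence and no binding was measured.

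In all, the 10 genes had 23 peaks in either basal list, then 21 with desmin and 13 without it after swimming. Below, 4 values in a row follow the order Des+/+ basal, Des-/- basal, Des+/+ swim, Des-/- swim. Peaks within 3 kb of a start, called promoter peaks here, numbered 13, 15, 12 and 10, and the others 10, 8, 9 and 3. Against Des+/+ swim, the lower number in Des-/- swim lay mainly outside promoters, where 3 peaks were listed against 9. Against Des-/- basal, promoter peaks (10 against 15) and other peaks (3 against 8) were both fewer. The share of promoter peaks was 76.9% of the members' peaks in Des-/- swim against 56.5% to 65.2% in the other lists, and 77.3% of all peaks in Des-/- swim against 71.2% to 74.4%. Every member had a peak in the first 3 lists, and Trim63 had none in Des-/- swim. The number of peaks also depends on splitting, since 1 promoter region can be listed as 1, 2 or 3 neighbouring peaks.

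**Figure D1:**
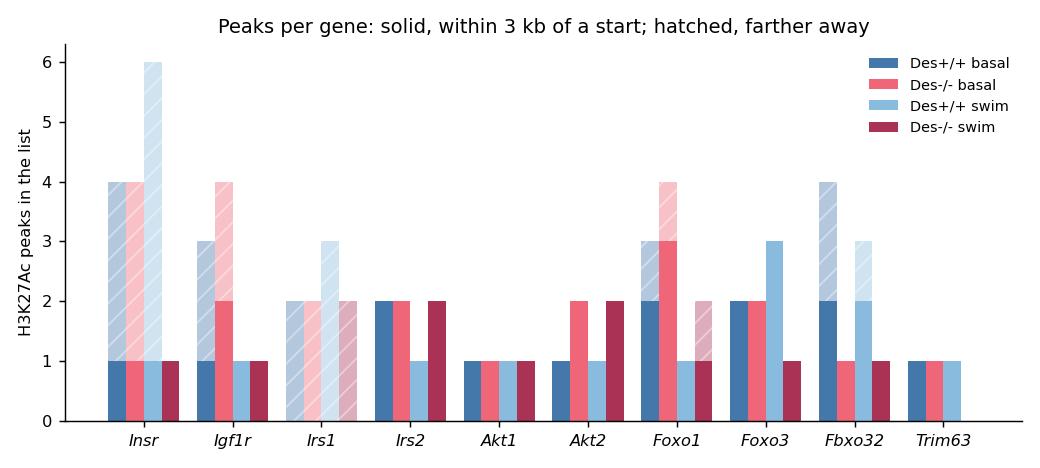
Number of H3K27Ac peaks assigned to each gene (vertical axis) in the 4 lists, 1 library each, with promoter peaks solid and other peaks hatched. After swimming Insr has 6 peaks with desmin and 1 without it, and the Trim63 bar is missing in Des-/- swim.

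Insr, the insulin receptor (chromosome 8, 3122061 to 3279617, minus strand), had 4, 4, 6 and 1 peaks. Its promoter peak was 39, 36, 21 and 18 reads high over inputs of 2, 3, 3 and 5. The promoter was lower after swimming than at rest in both genotypes, before and after scaling by the median ratio over all shared regions. The scaled ratio of swim to basal was 0.730 in Des+/+ (0.408 to 1.27) and 0.667 in Des-/- (0.356 to 1.21). Both intervals include 1, so the scaled drop lay within counting error. Fewer cells with the mark and less of it per cell cannot be told apart in pooled chromatin, and the part of library depth was not tested. The remaining Insr peaks all lay in introns 2 and 9, were 15 to 19 reads high and so lay just above the listing limit. Des+/+ swim held 5 of them, at 31.5 to 92.7 kb downstream of the start, and each basal list held 3. Des-/- swim held none, and its nearest peak to the 5 Des+/+ swim peaks was the Insr promoter, 30.7 to 91.2 kb away. Of all 7166 genes with a peak in Des+/+ swim, 135 had 6 or more, which is 1.88%. Of all genes, 18 had at least 5 fewer peaks in Des-/- swim than in Des+/+ swim, and 7 had at least 5 fewer in Des+/+ swim. Only genes with at least 5 peaks in a list can have 5 fewer in the other, so most genes could not count here. The limits of 6 peaks and of 5 fewer are the values of Insr itself.

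The intron peaks of Insr also differed between the Des+/+ lists. Peaks at 3187819 to 3188358 (intron 9, 18 reads, printed above), 3221187 to 3221882 (intron 2, 17 reads) and 3247230 to 3248104 (intron 2, 15 reads, also printed above) were listed in Des+/+ swim and had no overlap in Des+/+ basal. The second of these overlapped a peak of 16 reads in Des-/- basal. Des+/+ basal had 1 intron peak of its own, at 3237052 to 3237433 and 18 reads high, 153 bases from a Des+/+ swim peak.

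**Figure D2:**
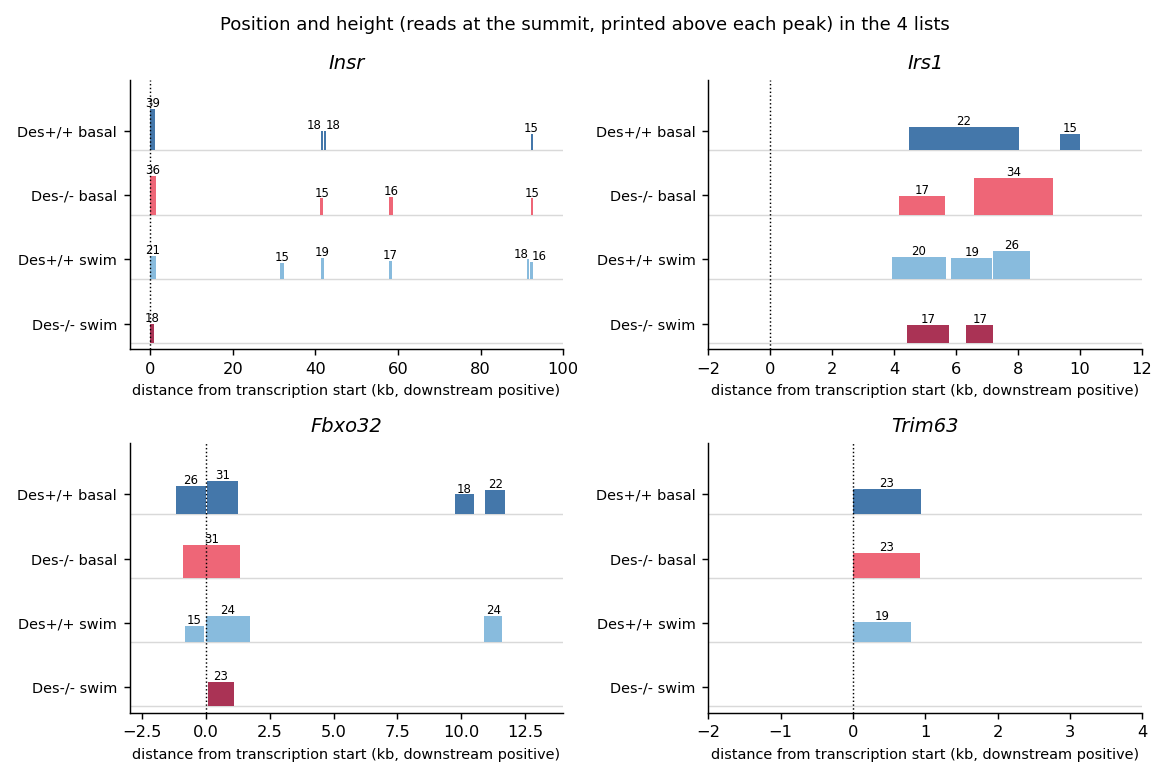
H3K27Ac peaks of Insr, Irs1, Fbxo32 and Trim63 by distance from the transcription start (kb) in the 4 lists, 1 library each, with the height in reads as bar height and printed above it. Insr intron peaks are missing from the Des-/- swim row and the Fbxo32 peak near 11 kb from both Des-/- rows. Irs1 has no peak at its start in any row.

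Igf1r, the IGF1 receptor (chromosome 7, 67952827 to 68233668, plus strand), kept a promoter peak in every list, 30, 39, 19 and 30 reads high over inputs of 3, 4, 4 and 9. The Des+/+ swim peak was the lowest of these. Outside the promoter, intron 2 held peaks of 15 to 16 reads in both basal lists and none after swimming in either genotype. At the farther intron site the peak of Des+/+ basal ended 18 bases before that of Des-/- basal began, so the lists counted them as unshared although they were neighbours. The summit of the promoter peak lay 624 to 696 bases before the GENCODE start in all 4 lists. The RefSeq start lies upstream of the GENCODE start, and all 4 summits fall inside the promoter sequence printed above.

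Irs1, the first insulin receptor substrate gene (chromosome 1, 82233101 to 82291416, minus strand), had no promoter peak in any list. Of all 10927 genes with a peak, 985 likewise had none within 3 kb of a start in any list, which is 9.01%. Its acetylation lay downstream, 3.92 to 9.13 kb after the start, in a single region annotated to its first intron and 3′ UTR, and Des+/+ basal had 1 more peak of 15 reads just beyond it. The region was 22, 34, 26 and 17 reads high, and its input was 7, 2, 4 and 2. Its highest summit lay 7.747 to 7.865 kb after the start in the Des+/+ lists and Des-/- basal. Des-/- swim listed no peak there, and its peaks of 17 reads had summits at 6.97 and 5.39 kb. Near these 2 summits Des+/+ swim had 19 and 20 reads, and near the second Des-/- basal had 17. The Des-/- swim ratios below thus compare different summits. By its highest peak, the region in Des-/- was higher than in Des+/+ at rest and lower after swimming. The scaled ratio of heights, which divides the ratio by its median over all regions that both lists share, was 1.46 at rest (95% interval 0.829 to 2.62) and 0.588 after swimming (0.2996 to 1.127). Both intervals include 1. Swimming against basal gave 1.60 in Des+/+ (0.872 to 2.96) and 0.667 in Des-/- (0.349 to 1.23).

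Irs2, the second substrate gene (chromosome 8, 10984681 to 11008458, minus strand), had the second highest promoter peak after Akt2 in Des-/- basal. Its height was 48, 68, 39 and 48 reads, over inputs of 5, 2, 4 and 6. The highest summit lay 776 to 877 bases before the GENCODE start, in the 4 lists. A lower peak of 20 to 27 reads closer to that start was listed on its own in 3 of them. The RefSeq start, used for the printed promoter, lies between the lower and the highest summits. The start of the noncoding gene 9530052E02Rik lies within 3 kb, so the acetylation cannot be assigned to Irs2 alone. Irs2 was listed in all 4 lists and no ratio passed 1.5-fold: the scaled ratio of Des-/- to Des+/+ was 1.34 at rest (0.911 to 1.98) and 1.11 after swimming (0.711 to 1.74).

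Akt1 and Akt2 encode the 2 AKT kinases of the set, Akt2 being the isoform most tied to insulin-driven glucose uptake. Akt2 (chromosome 7, 27591552 to 27640826, plus strand) had the highest peak of the members in every list, at 76, 88, 44 and 50 reads. These heights stood at percentiles 97.0, 97.7, 92.7 and 92.4 of all peaks in their lists. Input at that peak was 2 reads in 3 lists and 11 in Des-/- swim. The summit lay 280 bases before the start in Des+/+ swim and 323 to 485 bases after it in the other lists. Heights, inputs and ratios that set Des+/+ swim against another list thus compare different Akt2 summits. In Des-/- swim a second Akt2 peak of 32 reads, with its summit 272 bases before the start, had an input of 2. Akt1 (chromosome 12, 112653821 to 112674884, minus strand) had 1 promoter peak per list, 53, 53, 25 and 41 reads high over inputs of 4, 5, 3 and 8. The Des+/+ swim height was the lowest of the 4, and the scaled ratio of swim to basal was 0.639 in Des+/+ (0.381 to 1.05) and 1.03 in Des-/- (0.669 to 1.58). After swimming Akt1 was 1.48 times higher in Des-/- than in Des+/+ (0.876 to 2.53), just inside the 1.5-fold limit.

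Foxo1 and Foxo3 encode the FOXO factors that AKT restrains. Foxo1 (chromosome 3, 52268336 to 52353221, plus strand) had promoter heights of 38, 31, 28 and 27 reads over inputs of 4, 3, 6 and 8, and the start of Gm20402 lies within 3 kb. A distal region near 69 kb upstream, over the noncoding gene Gm37170, was 17 and 24 reads high at rest (Des+/+ and Des-/-) and 16 after swimming without desmin. The summits lay 69985 and 69926 bases upstream at rest and 69339 in Des-/- swim, whose peak did not overlap that of Des+/+ basal. Des+/+ swim had no peak there, which made the Des-/- swim peak the single member peak found in Des-/- swim and not in Des+/+ swim. Foxo3 (chromosome 10, 42181841 to 42276755, minus strand) had promoter heights of 41, 48, 27 and 31 reads over inputs of 5, 3, 4 and 7. By these highest peaks, its scaled ratios lay between 0.861 and 1.11 in the 4 comparisons. The highest summit lay 272 bases before the start in Des+/+ basal and 258 in Des-/- swim. In Des-/- basal and Des+/+ swim it lay 1246 and 1244 bases before the start, so some ratios compare different summits. At the nearer summit these 2 lists had 45 and 21 reads. Foxo3 was listed as 2, 2, 3 and 1 peaks, all within 1 promoter region.

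Fbxo32, which encodes the atrophy ligase atrogin-1 (chromosome 15, 58175879 to 58214932, minus strand), held the one member region whose presence differed between the genotypes in the same direction at rest and after swimming. Its promoter was listed in all 4 lists, at 31, 31, 24 and 23 reads over inputs of 2, 2, 4 and 8. A peak in intron 4, 10.9 to 11.7 kb downstream of the start, was 22 reads high in Des+/+ basal and 24 in Des+/+ swim. Neither Des-/- list held a peak there, and the nearest Des-/- peak was 9.60 kb away at rest and 9.82 kb away after swimming. It was the one member region found in both Des+/+ lists and in neither Des-/- list, of 13 member regions in both Des+/+ lists. Over all regions, 2.62% of those in both Des+/+ lists were in neither Des-/- list. Among regions at least 20 reads high in both Des+/+ lists, 8 of 5299 or 0.151% were in neither Des-/- list, and among 9 such member regions it was 1, this one. These counts were made after its values were seen. In the other direction, 13 of 5933 regions at least 20 reads high in both Des-/- lists were in neither Des+/+ list. A second intron 4 peak of 18 reads, 9.75 to 10.5 kb downstream, was listed in Des+/+ basal alone.

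The Fbxo32 promoter itself was close in height between the genotypes. The scaled ratio of Des-/- to Des+/+ was 0.944 at rest (0.555 to 1.61) and 0.863 after swimming (0.465 to 1.60). A part of the promoter upstream of the start was listed as its own peak in Des+/+ basal (26 reads) and Des+/+ swim (15 reads). In Des-/- swim the promoter peak began 60 bases after the start and no upstream peak was listed, while in Des-/- basal a single peak covered both sides. The start of Gm15943 lies within 3 kb. The genes whose highest promoter peaks were most like those of Fbxo32 over the 4 lists, by the summed difference of log2 heights among 5259 genes, were Rbm42 (32, 31, 24 and 23 reads), Cilk1 (31, 31, 25 and 24) and Letmd1 (31, 28, 24 and 23).

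Trim63, which encodes the ligase MuRF1 (chromosome 4, 134315120 to 134329629, plus strand), had a single promoter peak of 23 reads at rest in both genotypes and of 19 reads in Des+/+ after swimming, each over an input of 2. Des-/- swim held none, and its nearest peak was 14.8 kb away. The peak was narrow and one-sided. It began between 3 bases before and 5 bases after the start and ended 801 to 942 bases after it, so the promoter sequence printed above lies almost wholly outside the listed peak. The summit lay 189 to 243 bases downstream. Trim63 had the lowest promoter height of the members in both basal lists. The scaled ratio of Des-/- to Des+/+ at rest was 0.944 (0.506 to 1.76) and that of swim to basal in Des+/+ was 1.12 (0.576 to 2.15). Of 6700 genes with a peak in the first 3 lists, 956 or 14.3% had none in Des-/- swim. Of all genes with a peak in Des+/+ swim, 17.6% had none in Des-/- swim, against 1 of 10 members.

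The input of Des-/- swim was higher at most of its listed promoter peaks and not at its 3 other member peaks. At the highest promoter peak of each member its input was 5 to 11 reads, against 2 to 6 in the other lists, and at the 3 member peaks outside promoters it was 2, the median of the other lists there. The median over the members' promoter peaks was 8 in Des-/- swim and 2 to 3 in the others, and over all promoter peaks 6 and 3. Over all peaks outside promoters it was also higher in Des-/- swim, at 3 against 2 in each other list. Height over input, each plus 1, had a median of 3.58 at the members' promoter peaks in Des-/- swim against 8, 9 and 5.50 in the first 3 lists. Among all listed peaks of Des-/- swim, the lowest height was 15 reads at an input of 5, 18 at an input of 8 and 20 at an input of 9. Inputs at the sites missing from Des-/- swim are unknown, and the part of the input in the missing peaks was not tested.

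**Figure D3:**
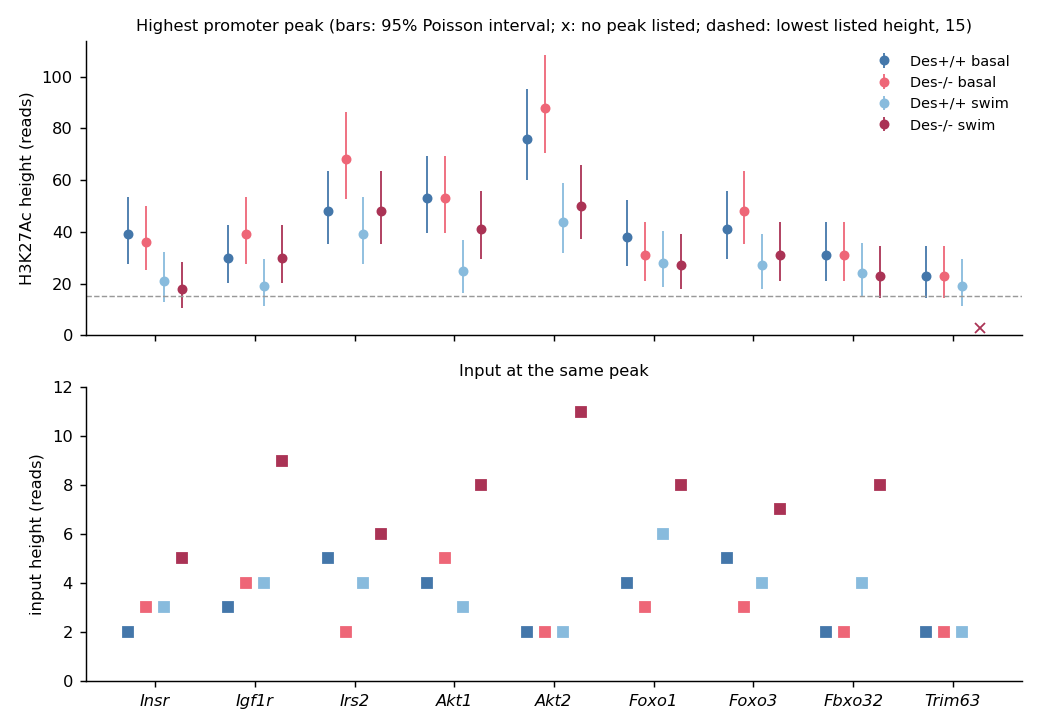
Height in reads of the highest promoter peak of 9 members with its 95% Poisson interval (top) and the input height at the same peak (bottom) in the 4 lists, 1 library each, with a cross where no peak was listed and a dashed line at 15 reads. Akt2 is highest in every list, and the Des-/- swim inputs, at 5 to 11 reads, lie above those of the other lists for each gene it lists.

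At rest, the genotypes shared most of the members' regions, and the differences were at weak intron peaks. Of 23 Des-/- basal peaks 2 had no overlap in Des+/+ basal, at Insr and Igf1r, or 8.70%, against 19.7% of all peaks of that list. Of 23 Des+/+ basal peaks 5 had none in Des-/- basal, or 21.7%, against 14.5% of all. They were 2 of Fbxo32 and 1 each of Insr, Igf1r and Irs1, and the last 3 lay 18 to 265 bases from a Des-/- peak. None was a promoter peak. Of 14 member regions in both lists none was past 1.5-fold in either direction, where 3% of 12052 regions were higher in Des-/- and 3.03% higher in Des+/+. The members' scaled ratios ran from 0.770 at the Foxo1 promoter to 1.46 at Irs1, with a median of 0.944.

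After swimming, the peaks missing from Des-/- belonged to Insr, Fbxo32 and Trim63. Of 21 Des+/+ swim peaks 8 had no overlap in Des-/- swim, or 38.1%, against 27% of all peaks of that list, and they were 5 of Insr, 2 of Fbxo32 and the Trim63 promoter. Of the peaks of 15 to 19 reads in Des+/+ swim, 48.4% of all had no overlap in Des-/- swim, against 7 of the 10 member peaks in that range. The eighth was the Fbxo32 intron 4 peak at 24 reads. Of 13 Des-/- swim peaks 1 had no overlap in Des+/+ swim, the distal Foxo1 peak, or 7.69%, against 22.2% of all. Of 9 shared member regions none was past 1.5-fold higher in Des-/- and 1, Irs1, was past it in Des+/+, where the shares of 7099 regions were 3.51% and 4.23%. The members' ratios ran from 0.588 to 1.48 with a median of 1.02.

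Swimming against basal in Des+/+ gave 3 Insr intron peaks that were not listed at rest and fewer peaks elsewhere. Of 21 Des+/+ swim peaks these 3 had no overlap in Des+/+ basal, or 14.3%, against 8.39% of all, and they were 15 to 18 reads high. Of 23 Des+/+ basal peaks 6 had none in Des+/+ swim, or 26.1%, against 39% of all, 2 of them at Igf1r and 1 each at Insr, Irs1, Foxo1 and Fbxo32. Heights were lower after swimming in general, with a median unscaled ratio of 0.738 over all shared regions. After scaling, 1 of 13 member regions (Irs1) was past 1.5-fold higher in swim, where 5.04% of 8766 regions were, and 1 (the Akt1 promoter) past it in basal, where 3.82% were.

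The same comparison in Des-/- gave no member peak that was not listed at rest. Of 13 Des-/- swim peaks 0 lacked an overlap in Des-/- basal, against 6.28% of all. Of 23 Des-/- basal peaks 7 lacked one in Des-/- swim, or 30.4%, against 44.8% of all, namely 3 intron peaks of Insr, 2 of Igf1r, 1 of the Foxo1 promoter peaks and the Trim63 peak. The 2 comparisons of swim against basal share no library, whereas each shares its libraries with the genotype comparisons. None of 10 shared member regions was past 1.5-fold higher in swim, where 4.81% of 8440 regions were. The Insr promoter and the Irs1 region were both at 0.667 and so past it in basal, where 3.13% were, and the interval of each includes 1.

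**Figure D4:**
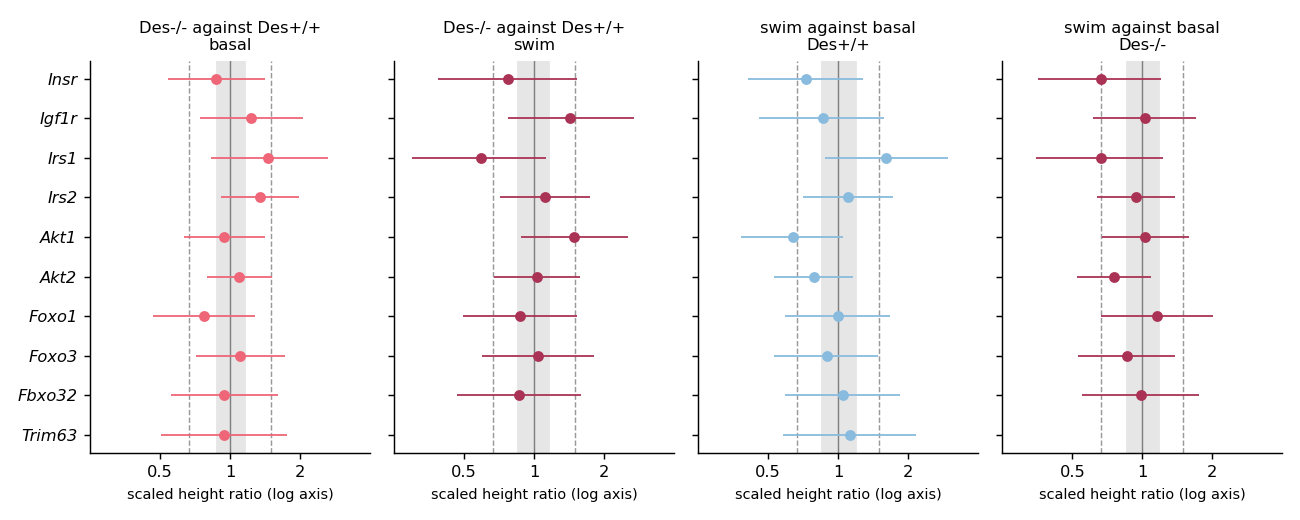
Scaled height ratio of each member's main region (log axis) with its 95% interval from counting error in the 4 comparisons, with the interquartile range of all shared regions in grey and dashed lines at 1.5-fold. The interval of every member includes 1, and Irs1 lies at 1.60 for swim against basal in Des+/+ and at 0.667 in Des-/-.

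A wider list of 34 genes of PI3-kinase, mTOR and insulin signalling had a peak at 30, 30, 25 and 23 genes in the 4 lists. After swimming, Pik3r2 (a regulatory subunit of PI3-kinase), Pdpk1 (the kinase that phosphorylates AKT) and Grb10 (an adaptor that restrains the insulin receptor) had a peak in Des+/+ and none in Des-/-, which is 3 of 25 genes of the list against 17.6% of all genes with a peak in Des+/+ swim. Phlpp2, a phosphatase of AKT, was the 1 gene of 23 with a peak in Des-/- and none in Des+/+, as were 16.3% of all genes with a peak in Des-/- swim. Their promoter heights in Des+/+ swim were 30, 24 and 19 reads, and that of Phlpp2 in Des-/- swim was 20. The ligand genes Igf1 and Igf2 and the factor gene Foxo6 had no peak in any list.

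Promoter heights of these genes could be compared for 29 genes at rest and 22 after swimming. At rest Pik3r2 (26 against 49 reads, scaled ratio 0.501, interval 0.299 to 0.822) and Slc2a4, the insulin-responsive glucose transporter (19 against 29 reads, 0.619, 0.328 to 1.14), were past 1.5-fold lower in Des-/-. Over all genes 2.33% were past it in that direction and 3.68% in the other, where no gene of the list was. After swimming Shc1, an adaptor of growth factor receptors, was 59 against 34 reads (1.56, 1.01 to 2.46), where 4.12% of genes were past 1.5-fold higher in Des-/- and 3.33% higher in Des+/+. In swim against basal of Des+/+, Shc1 (34 against 74 reads, 0.622, 0.402 to 0.946) was among the genes past 1.5-fold lower, which were 4.77% of all genes, and none of the 25 genes of the list compared was past 1.5-fold higher, as were 2.87%. In Des-/- none of 23 genes passed it in either direction, where 3.3% were higher and 3.75% lower. The medians of the list were 0.944, 1.08, 0.934 and 1.07 in the 4 comparisons in the order given, against 1.02, 1.02, 0.961 and 0.978 over all genes.

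The list of 21 genes linked to FOXO factors or atrophy had a peak at 18, 19, 16 and 14 genes. After swimming the muscle genes Fbxo40, a ligase for Irs1, and Trim54, a relative of Trim63, had a peak in Des+/+ (22 and 21 reads at the promoter) and none in Des-/-, which is 2 of 16 genes of the list against the 17.6% of all genes. Promoter heights could be compared for 18 genes at rest and 13 after swimming, and for 15 in Des+/+ and 13 in Des-/- between swim and basal. After swimming 1 gene was past 1.5-fold lower in Des-/- and 2 were higher, where 3.33% and 4.12% of all genes were. The lower gene was Pdk4, the kinase that restrains pyruvate dehydrogenase (20 reads in Des-/- against 33 in Des+/+, scaled ratio 0.545, interval 0.297 to 0.979). Cblb, a ligase with a role in Irs1 turnover (45 against 21 reads, 1.93, 1.125 to 3.41), and Traf6, a signalling ligase (27 against 16 reads, 1.52, 0.789 to 3.02), were higher in Des-/-. At rest Fbxo40 alone was past it, lower in Des-/- (15 against 25 reads, 0.567, 0.278 to 1.12), where 2.33% of all genes were lower and 3.68% higher. Against basal, 1 gene was past 1.5-fold in Des+/+, Pdk4, which was higher in swim (33 against 29 reads, 1.54, 0.908 to 2.63), where 2.87% of all genes were higher and 4.77% lower. In Des-/- it was Cited2, a transcriptional coregulator, lower in swim (19 against 41 reads, 0.618, 0.339 to 1.09), where 3.75% of all genes were lower and 3.3% higher. The medians were 0.963, 0.90, 1.03 and 0.931 in the same order, beside those over all genes given above. Fbxo21 and Mstn of this list had no peak in any list.

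The lamin A/C lists, made from the same groups, held 188 to 831 peaks of 8 reads or more. None was assigned to a member and none overlapped a member's gene body or the 3 kb before its start. Each of these lists named only 169 to 420 genes and covered 0.0454 to 0.244 Mb, so the absence of a peak at the members says little about them.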

How the data were processed

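H3K27Ac and lamin A/C ChIP-seq and input libraries were made from adult cardiomyocytes, and the authors deposited 1 peak list per ChIP library. Per the submitters' processing notes the tools were Bowtie2 2.4.4, SAMtools 1.13 and ChIPseeker 1.36.0 on GRCm38 (mm10), and per the study's methods peaks were called with in-house code. The deposited signal is the read height at the summit in ChIP and in input. The deposited fold is (ChIP + 1)/(input + 1) and the deposited p-value is a Poisson tail, both reproduced for 100% of peaks and not used further. The deposited distance to the nearest start, taken as a score, set promoter peaks (3 kb or less). Whether input was scaled to depth is not given in the sources used here.

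Peaks were taken by the deposited gene symbol. Peaks overlapping by 1 base or more over the 4 lists were merged into regions, whose height per list is that of their highest peak. The highest peak of a region can have a different summit in different lists. Ratios were divided by the median ratio over all regions shared by both lists and called past 1.5-fold. Their 95% intervals are exact conditional binomial, those of heights exact Poisson, and reads with possible PCR copies are counted as independent. With 1 library per group no test was made. The functions were tested on simulated lists. Gene positions are those of GENCODE M21 and promoter sequences those of RefSeq, both on GRCm38.p6. Python 3.11.15, pandas 2.3.3 and scipy 1.17.1 were used. All 10 genes are named with every peak, and other genes of the fixed lists where they were present in 1 genotype after swimming or past 1.5-fold, at most 6 a comparison, except for 1 gene that is not reported here. The members and lists were chosen with earlier results of these data known. Alternatives changed the minimum height, enrichment, assignment, overlap, promoter distance, scaling, input subtraction and fold.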

Additional observations from a re-analysis of the deposited data

Results flagged for a closer look

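At 2 member regions the height ratio of swim to basal lay on opposite sides of 1 in the genotypes and was past 1.5-fold in at least 1 of them. At the Irs1 region it was 1.60 in Des+/+ and 0.667 in Des-/-, and at the Akt1 promoter 0.639 in Des+/+ and 1.03 in Des-/-. The Irs1 height of Des-/- swim was read at a different summit from those of the other lists, so its ratio in Des-/- compares unlike peaks. Without scaling, the Irs1 ratios were 1.18 and 0.50 and the Akt1 ratios 0.472 and 0.774.

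The number of peaks moved in opposite directions with swimming at 2 genes. Insr had 4 peaks at rest and 6 after swimming in Des+/+, and 4 at rest and 1 after swimming in Des-/-. Foxo3 had 2 and then 3 peaks in Des+/+, and 2 and then 1 in Des-/-, all inside 1 promoter region. None of these differences between the genotypes was tested, since each group is 1 library.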

How the results depend on the processing

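Of 76 counts recomputed under an alternative, 48 stayed within 1.5 times the reported count and 28 moved. All 114 recomputed height ratios of the members' main regions stayed inside the reported counting interval. Those intervals are wide, so staying inside them says little about how far a ratio moved. With input subtracted, the Irs1 ratio of Des-/- to Des+/+ at rest went from 1.46 to 1.98. With peaks of at least 20 reads, the members had 14 peaks at rest with desmin and 16 without it, and 11 against 9 after swimming. At that height, the Des-/- basal peaks without overlap in Des+/+ basal numbered 0, the reverse 1, Des-/- swim peaks without overlap in Des+/+ swim 0 and the reverse 1, and the single peaks were the Fbxo32 intron 4 peak each time. The 3 Des+/+ swim peaks absent from Des+/+ basal became 0, the reverse 0, and the Des-/- basal peaks absent from Des-/- swim 2. With at least 5-fold over input, Des-/- swim kept 5 of 13 peaks. Over gene bodies and the 3 kb before them, the distal Foxo1 peak dropped out and 0 Des-/- swim peaks lacked an overlap in Des+/+ swim.

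Without scaling, regions past 1.5-fold numbered 1 higher in Des-/- and 0 higher in Des+/+ at rest, 2 higher in Des-/- after swimming, 0 higher and 5 lower after swimming in Des+/+, and 5 lower after swimming in Des-/-. With scaling by regions of at least 30 reads, 4 were higher and 0 lower after swimming in Des+/+, and 0 lower in Des-/-. With input subtracted, 1 was higher in Des-/- at rest, 1 higher and 0 lower in Des-/- after swimming, 2 higher after swimming in Des+/+, and 1 lower in Des-/-. At 2-fold, every count was 0. No paired analysis was possible because each group is 1 library and no test was made. Absence from a list is limited by the 15-read minimum and by unknown depth.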

Other observations

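The other 7 regions at least 20 reads high in both Des+/+ lists and in neither Des-/- list, beside the Fbxo32 intron 4 region, were nearest to Pgam2 (24 reads at rest and 21 after swimming), Fam43a (25 and 20), Ergic1 (20 and 22), Efcab14 (21 and 21), Ttc34 (23 and 22), Myo9b (20 and 20) and Cngb1 (20 and 20). Pgam2 encodes the muscle form of phosphoglycerate mutase, and its region covered the start. These regions were singled out after their values were seen, and all had heights of 20 to 25 reads.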
